A study of Mus musculus with 12 samples.

Results

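Invariant natural killer T cells that make interleukin 17 (iNKT17 cells) were compared between 2 mouse strains on the 5 arrays whose titles name them, 3 from BALB/c mice and 2 from B6 mice, out of 12 arrays in the series. The other arrays hold ROR- cells of BALB/c (3) and of B6 (2) and gamma-delta 17 cells of B6 (2). The labels give strain and cell phenotype and number the replicates, and they name no treatment, transgene, organ, age or sex. The protocol speaks of frozen tissue where the labels speak of cells, so how the cells were obtained is not known here. Nothing in the labels says that replicates came from separate animals, and p-values therefore rest on the spread among these arrays alone, part of which may be technical. Each gene was represented by its brightest probe set with a single gene symbol, and 16667 genes were bright enough to be tested.

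Invariant natural killer T cells carry a semi-invariant antigen receptor that reads lipids on CD1d and depend on the transcription factor PLZF, the product of Zbtb16. Their interleukin 17-making subset responds to interleukins 1 and 23 and is known to be more frequent in BALB/c than in B6 mice. Laboratory strains also differ at fixed blocks of genes, among them the major histocompatibility complex (MHC) on chromosome 17, where BALB/c carries the d and B6 the b haplotype, and the natural killer gene complex on chromosome 6.

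The arrays matched their label. Il23r, the interleukin 23 receptor that defines type 17 lymphocytes, read 10.25, 9.89 and 10.27 on the 3 BALB/c iNKT17 arrays and averaged 9.76 ± 0.33 (SD, n = 2) in B6 iNKT17 cells, all on the deposited log2 scale. The T cell receptor component Cd3e read 11.67, 11.52 and 11.75 in BALB/c and 11.39 and 11.32 in B6. Across 33 type 17 genes the mean level lay between 8.30 and 8.45 on the BALB/c iNKT17 arrays and at 8.30 and 8.05 on the B6 iNKT17 arrays, against 6.55 to 7.17 on the 5 ROR- arrays. Tbx21, which directs the type 1 program, read 4.79 to 4.94 in BALB/c and 4.77 and 4.78 in B6.

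Replicate arrays correlated at 0.981 to 0.986 in BALB/c iNKT17 and 0.985 in B6 iNKT17 cells. Defining markers of other cell types were mostly dim, with exceptions. The mean of 7 gamma-delta T cell genes was not dim, at 7.59 to 8.02 in BALB/c iNKT17 and 7.5 and 7.16 in B6 iNKT17 cells. It was 5.89 to 7.06 on the ROR- arrays and 8.22 and 9.46 on the gamma-delta 17 arrays. Of these 7 genes 0 passed between the strains in limma and 1 had an unadjusted p under 0.05. The mean of 10 neutrophil markers was 3.31 to 3.34 in BALB/c and 3.33 and 3.45 in B6, where 3.45 is also the dim level used throughout, the 30th percentile of all named probe-set values. The mean of 7 B cell markers was 4.52 to 4.54 in BALB/c and 4.53 and 4.51 in B6, with 2 of the 7 under the dim level on all 5 arrays. The mean of 12 macrophage, monocyte and dendritic cell markers was 4.35 to 4.43 in BALB/c and 4.31 and 4.32 in B6, and 4 of these lay under the dim level throughout. Some markers were bright, among them Vim of the stromal list at 10.67 to 11.11 in BALB/c and 11.22 and 11.45 in B6, Cst3 of the myeloid list at 10.17 to 10.32 in BALB/c and 10.32 on both B6 arrays, and Ighm of the B cell list at 7.52 to 7.91 in BALB/c and 7.77 and 8.13 in B6. Lyz2, by contrast, was at 3.03 to 3.32 in BALB/c and 3.17 and 3.39 in B6. The 5 tested B cell, 9 myeloid, 7 neutrophil, 1 erythroid and 11 epithelial and stromal genes held 0 calls in limma, with 1, 0, 0, 0 and 1 at an unadjusted p under 0.05. Among 12 markers of natural killer and CD8 T cells 0 passed limma's test and 1, Cd8a, had an unadjusted p under 0.05. Cd8a read 4.99, 5.28 and 5.0 in BALB/c and 6.74 and 6.73 in B6 (adjusted p = 0.297 in limma). Over all tested genes 1.48% passed in limma and 12.6% had an unadjusted p under 0.05. With marker lists this small, 0 calls therefore say little about which cells were present. Immediate-early and heat-shock genes averaged 8.61 on BALB/c iNKT17 replicate 1 against 7.45 and 7.33 on the other BALB/c arrays, and 7.28 and 7.24 on the B6 arrays. The parts that these levels play in the strain differences were not tested, and in bulk RNA fewer cells of a type cannot be told apart from less RNA per cell. One ROR- array, BALB/c replicate 2, stood apart by its type 17 transcripts, reading 7.0 for Il23r where replicates 1 and 3 read 3.05 and 3.37. It enters the main iNKT17 comparison only through the spread. In the fit with the cell cycle level as a covariate it also enters through the slope on that level, which all 12 arrays share. B6 gamma-delta 17 replicate 1 stood apart by markers of other cells. Its neutrophil markers averaged 5.41 against 3.33 on replicate 2. Its immature thymocyte markers averaged 5.58 against 4.12, and its natural killer and CD8 markers 5.69 against 4.67. This array enters the 2 fits in the same ways. The Y-linked gene Eif2s3y was bright on every iNKT17 array, at 7.99 to 8.33 in BALB/c and at 8.16 and 7.94 in B6.

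In iNKT17 cells 247 of 16667 genes differed between the strains (1.48%; limma, Benjamini-Hochberg adjusted p under 0.05), 112 higher in BALB/c (0.672%) and 135 lower (0.81%). At least a 2-fold change was found for 144 of them (0.864%), 65 higher and 79 lower. The median difference over all tested genes was 0.03 log2 units, with quartiles of -0.12 and 0.16. Each called gene had BALB/c arrays that all lay on the same side of the B6 arrays, while 31.7% of all tested genes had that property. The count rests on the few arrays. It was 77 without B6 iNKT17 replicate 2, 108 without B6 iNKT17 replicate 1, 112 without BALB/c iNKT17 replicate 3 and 132 without BALB/c iNKT17 replicate 1. Without BALB/c iNKT17 replicate 2 it was 531.

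**Figure D1:**
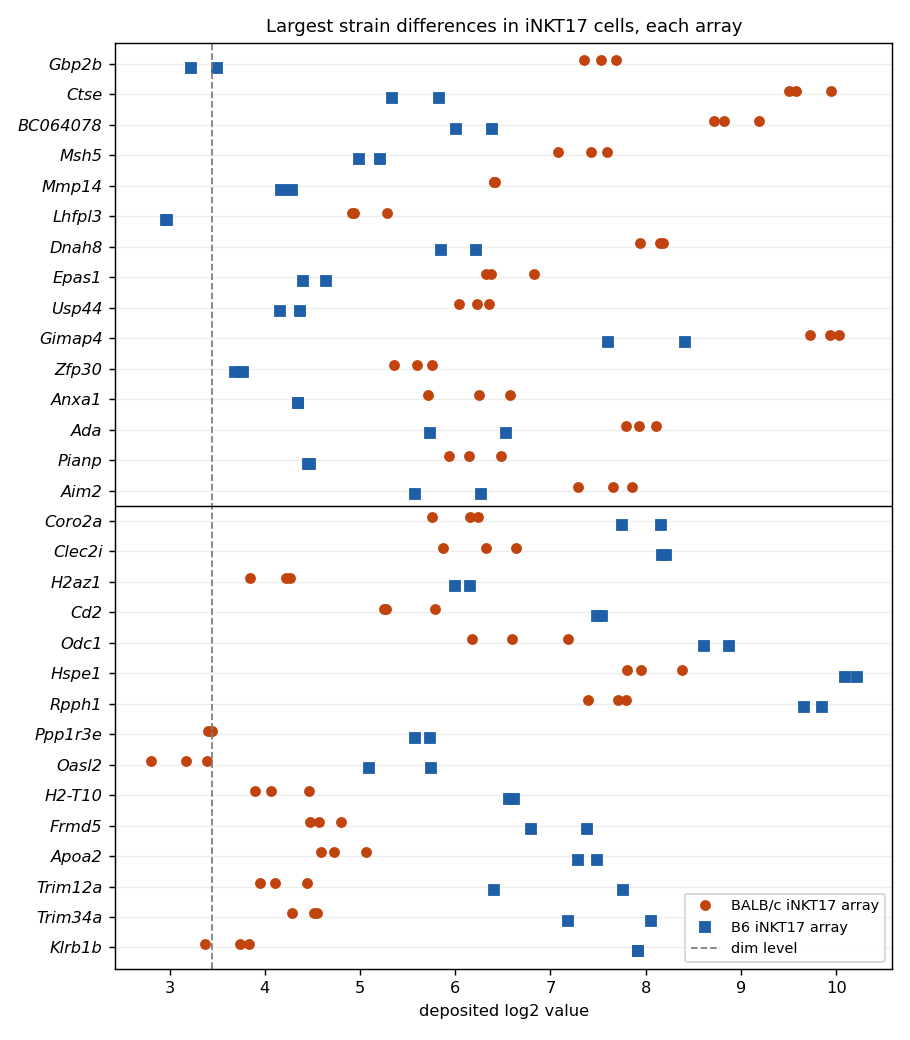
Deposited log2 values (horizontal axis) of the 15 largest rises (upper block) and 15 largest falls (lower block) that did not follow the cell cycle level, on each BALB/c iNKT17 array (circles) and each B6 iNKT17 array (squares). The dashed line marks the dim level of 3.45. The strains do not overlap for any of these genes, and the B6 arrays of Gbp2b and Lhfpl3 and the BALB/c arrays of Oasl2 and Ppp1r3e lie at or near the dim level.

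The largest rise in BALB/c was Gbp2b, which encodes an interferon-inducible guanylate-binding protein of cell-autonomous defence. Gbp2b read 7.69, 7.35 and 7.53 in BALB/c iNKT17 cells, against 3.50 and 3.22 in B6 iNKT17 cells. The difference was 4.16 ± 0.28 log2 units (SE, adjusted p = 2.22e-05 in limma), a 17.9-fold change whose size is uncertain because the B6 mean of 3.36 is under the dim level. Ctse, the aspartic protease cathepsin E, read 9.95, 9.50 and 9.58 in BALB/c and 5.83 and 5.34 in B6. All BALB/c arrays were thus far above both B6 arrays, and the rise was 4.09 ± 0.21 (17-fold, adjusted p = 2.64e-06 in limma). Mmp14 encodes a membrane-anchored matrix metalloproteinase. Its 3 BALB/c arrays were nearly equal at 6.41, 6.41 and 6.42, against 4.17 and 4.29 in B6, a rise of 2.18 ± 0.12 (adjusted p = 3.99e-06 in limma). Epas1, the hypoxia-inducible factor 2 alpha gene, read 6.83, 6.32 and 6.38 in BALB/c and 4.64 and 4.40 in B6 and rose by 1.99 ± 0.16. It was the only called gene among 21 of glycolysis and hypoxia, beside 1.48% of all tested genes. The median difference of the 21 was 0.22. In limma 5 of them had an unadjusted p under 0.05, against 12.6% of all tested genes.

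The remaining rises among the 15 largest belong to varied classes. The meiotic mismatch repair relative Msh5 was higher in BALB/c by 2.27, the axonemal dynein gene Dnah8 by 2.06, the deubiquitinase gene Usp44 by 1.94 and the zinc finger gene Zfp30 by 1.84. Ada, the adenosine deaminase of purine salvage, was higher by 1.81 and Anxa1, the annexin that dampens inflammation, by 1.83. Lhfpl3 was higher by 2.09, with a B6 mean of 2.96 under the dim level, and Pianp by 1.72. Ada lost its call without B6 iNKT17 replicate 1 (1.41, adjusted p = 0.067 in limma), on which it read 5.74 against 6.53 on the other B6 array. Anxa1 lost its call without either B6 iNKT17 array (adjusted p of 0.0533 without replicate 1 and 0.0694 without replicate 2, limma) and with the cell cycle level as a covariate (0.1).

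The largest fall was Klrb1b, the inhibitory lectin-like receptor NKR-P1B of natural killer cells and some T cells. Klrb1b read 3.37, 3.74 and 3.83 in BALB/c iNKT17 cells and 7.92 on both B6 iNKT17 arrays. The BALB/c arrays stood near the dim level, and the difference was -4.27 ± 0.16 (adjusted p = 2.38e-07 in limma), a 19.3-fold change. Cd2, the adhesion receptor that tunes T cell activation, read 5.79, 5.27 and 5.25 in BALB/c and 7.54 and 7.49 in B6, a difference of -2.08 ± 0.20. It was the only called member among 14 tested genes of the SLAM and CD2 family, beside 1.48% of all tested genes. In limma 5 of the 14 had an unadjusted p under 0.05, against 12.6% of all tested genes. Frmd5, a FERM-domain gene of cell adhesion, read 4.57, 4.80 and 4.47 in BALB/c and 7.38 and 6.80 in B6, a difference of -2.48 ± 0.24.

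Further falls covered metabolism, chromatin and RNA processing. The apolipoprotein gene Apoa2 was lower by -2.59, the phosphatase regulator Ppp1r3e by -2.23, the mitochondrial chaperonin gene Hspe1 by -2.11 and the histone variant gene H2az1 by -1.97. Coro2a, a coronin of the actin cytoskeleton, was lower by -1.90, and its other probe set gave -4.88 with the mean of both at -3.39. Odc1, the first enzyme of polyamine synthesis, was lower by -2.09, and Rpph1, the RNA subunit of ribonuclease P, by -2.13. Odc1 lost its call without B6 iNKT17 replicate 2 (adjusted p = 0.0966 in limma), and Rpph1 did so without B6 iNKT17 replicate 1 (adjusted p = 0.0512) or replicate 2 (0.0966). Both lost it with the cell cycle level as a covariate, Odc1 at -1.62 ± 0.36 (adjusted p = 0.108 in limma) and Rpph1 at -2.23 ± 0.44 (0.0531). The Rpph1 difference was not smaller there, while its error rose from 0.33 to 0.44. Of the 30 largest named differences, 26 kept their call whichever array was left out, and 27 kept it with the cell cycle level in the model.

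Some of the called genes sit next to each other. Of the 144 genes with at least a 2-fold difference, 19 (13.2%) had another of them within 3 tested genes along the chromosome, against 4.8% of 16646 tested genes with a known place. The neighbours were singled out after their values were seen, and gene order was taken from RefSeq GRCm38.p6. The longest run lay in the natural killer gene complex on chromosome 6, where Klrb1b is followed by Clec2i, Clec2g, Gm15987 and BC064078. Clec2 genes encode lectin-like ligands of the Klrb1 receptors.

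Neighbours in this run moved in opposite directions. Clec2i, the ligand Clr-g, read 6.32, 5.87 and 6.64 in BALB/c and 8.21 and 8.17 in B6, a difference of -1.92 ± 0.26 (adjusted p = 0.00343 in limma). BC064078 read 8.82, 8.72 and 9.19 in BALB/c and 6.01 and 6.39 in B6, a rise of 2.71 ± 0.17 (adjusted p = 1.7e-05 in limma). Gm15987, which is counted among the genes that follow the cell cycle level, read 8.60, 7.51 and 9.02 in BALB/c and 4.76 and 4.89 in B6, a rise of 3.55 ± 0.35. Both uncharacterised transcripts were thus high in BALB/c beside a receptor and a ligand that were low. Clec2g, also counted among those genes, was higher by 1.22 ± 0.22 (1.64 with the cell cycle level as a covariate) with a B6 mean of 2.75 under the dim level, and its call was lost without any of 3 iNKT17 arrays (adjusted p = 0.0735 without B6 replicate 1, 0.245 without B6 replicate 2 and 0.0537 without BALB/c replicate 1, limma). Of the 18 tested genes on the list of Klr receptors with their Clec2 ligands 1 was higher, 2 were lower and 15 did not pass, with a median of 0.01. Of all tested genes 1.48% passed. An unadjusted p under 0.05 was found for 6 of the 18, against 12.6% of all tested genes. Among those that did not pass was Klrb1f, another receptor of the family, at 9.09, 8.64 and 9.08 in BALB/c and 8.55 and 8.34 in B6 (adjusted p = 0.369 in limma).

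On chromosome 7 both called genes of the Trim12, Trim30 and Trim34 cluster were lower in BALB/c. They were 2 of 6 tested members, against 1.48% of all tested genes that passed. These genes encode tripartite-motif proteins, some of which restrict viruses. Trim34a read 4.52, 4.29 and 4.55 in BALB/c and 8.06 and 7.18 in B6, a difference of -3.17 ± 0.30, and its second probe set gave -2.56. Trim12a read 4.11, 4.44 and 3.95 in BALB/c and 7.76 and 6.41 in B6, a difference of -2.92 ± 0.36. The other 4 tested members of the cluster did not pass. Among these the close relative Trim12c had values on the other side, with 7.20, 6.68 and 7.0 in BALB/c and 6.41 and 5.53 in B6 (0.99 ± 0.28, adjusted p = 0.134 in limma). The cluster holds near-identical copies, as do the Klr, Clec2, guanylate-binding, Ifi200 and MHC families and the histones, so the assignment of a signal to 1 copy is uncertain.

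MHC genes differed in both directions. H2-K1, the classical class I heavy chain, read 9.36, 8.97 and 9.02 in BALB/c and 10.31 and 10.39 in B6, a difference of -1.23 ± 0.16 (adjusted p = 0.00242 in limma). Its neighbour AA388235 was lower by -1.67. H2-T10, a nonclassical class I gene, read 3.90, 4.46 and 4.07 in BALB/c and 6.62 and 6.56 in B6, a difference of -2.44 ± 0.18. The class II beta chain H2-Ab1 went the other way. It read 7.82, 7.35 and 7.78 in BALB/c and 6.32 and 5.99 in B6, a rise of 1.5 ± 0.31, which is counted with the genes that follow the cell cycle level and lost its call without either B6 iNKT17 array (adjusted p = 0.099 without replicate 1 and 0.412 without replicate 2, limma), without BALB/c iNKT17 replicate 1 (0.144) or 3 (0.139), without any 1 of the BALB/c ROR- arrays (0.0511 to 0.0566), or with the covariate (0.49). In all, 1 of 22 tested antigen presentation genes was higher, 2 were lower and 19 did not pass, with a median of -0.08. Of all tested genes 1.48% passed. An unadjusted p under 0.05 was found for 5 of the 22, against 12.6% of all tested genes. Glo1, the glyoxalase that detoxifies methylglyoxal, and Dnah8 lie side by side on the same chromosome and were both higher, Glo1 by 1.06 ± 0.12.

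Interferon-linked genes did not share a direction. Of 25 tested interferon-stimulated genes 0 were higher, 3 were lower and 22 did not pass, with a median of -0.01. Of all tested genes 0.672% were higher and 0.81% lower. An unadjusted p under 0.05 was found for 6 of the 25, against 12.6% of all tested genes. Oasl2, an oligoadenylate synthetase-like gene, read 3.39, 3.17 and 2.80 in BALB/c and 5.09 and 5.75 in B6, a difference of -2.30 ± 0.25 with the BALB/c mean under the dim level. Eif2ak2, the double-stranded RNA sensor PKR, read 5.42, 5.47 and 5.39 in BALB/c and 6.39 and 6.43 in B6 (-0.98 ± 0.13), a call lost with the cell cycle level as a covariate (-0.87, adjusted p = 0.0626 in limma). Bst2, the virus-tethering protein tetherin, read 7.01, 7.10 and 6.30 in BALB/c and 7.95 and 8.30 in B6 (-1.32 ± 0.24), and it lost its call without B6 iNKT17 replicate 1 (adjusted p = 0.0621 in limma) or replicate 2 (0.269) and with the covariate (0.232). These 3 genes were lower while the mean level of the list was 5.25 to 5.31 in BALB/c and 5.44 and 5.38 in B6.

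Other interferon-inducible families held rises. Gbp2b was the only call among 13 tested guanylate-binding proteins and related GTPases, whose median was -0.20, beside 1.48% of all tested genes. In limma 3 of the 13 had an unadjusted p under 0.05, against 12.6% of all tested genes. Aim2, the cytosolic DNA sensor of the inflammasome, read 7.66, 7.29 and 7.86 in BALB/c and 6.27 and 5.58 in B6, a rise of 1.67 ± 0.20. Together with Ifi204, which is counted with the genes that follow the cell cycle level, it made 2 higher among 7 tested members of the Ifi200 family. Of all tested genes 0.672% were higher. An unadjusted p under 0.05 was found for 5 of the 7, against 12.6% of all tested genes. Apobec3, the cytidine deaminase that restricts retroviruses, read 7.22, 7.29 and 7.24 in BALB/c and 9.17 and 8.83 in B6, a difference of -1.75 ± 0.16, and the adjacent D730005E14Rik was lower by -2.09 ± 0.32. Without B6 iNKT17 replicate 1 the D730005E14Rik call did not hold (adjusted p = 0.0787 in limma).

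The interferon-stimulated response element was looked for in promoters of called genes. The motif was searched as 2 copies of GAAA with any 2 bases between them, on both strands, over the 300 bases around each gene's start in RefSeq GRCm38.p6, which is the sequence of the B6 strain, and matches may overlap each other. It was found in 466 of 12917 promoters of tested genes (3.6%), in 10 of 17 of the interferon-stimulated list, in 5 of 85 of the genes higher in BALB/c and in 11 of 103 of those lower. The 3 promoters below belong to Gbp2b, which was higher in BALB/c, and to Apobec3 and Bst2, which were lower, and capitals mark the motif on either strand. Each is the 150 bases before the start, written 5′ to 3′ along the gene: Gbp2b at chr3:142594697-142594846 on the plus strand, Apobec3 at chr15:79892258-79892407 on the plus strand and Bst2 at chr8:71537473-71537622 on the minus strand.
Gbp2b: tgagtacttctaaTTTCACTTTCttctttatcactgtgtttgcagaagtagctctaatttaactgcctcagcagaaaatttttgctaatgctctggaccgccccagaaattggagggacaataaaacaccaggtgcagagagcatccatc
Apobec3: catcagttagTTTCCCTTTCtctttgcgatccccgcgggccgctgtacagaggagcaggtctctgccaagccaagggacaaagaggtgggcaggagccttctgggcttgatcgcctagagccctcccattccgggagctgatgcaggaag
Bst2: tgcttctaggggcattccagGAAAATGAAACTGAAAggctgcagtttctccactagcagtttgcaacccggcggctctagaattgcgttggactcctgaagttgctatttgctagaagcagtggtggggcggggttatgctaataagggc
Oasl2 and Aim2 had no match in their windows, and Trim12a, Trim34a and Eif2ak2 had one after the start, which is not shown. The BALB/c sequence was not used here. A match describes the letters and is neither a bound site nor a cause.

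Of 33 tested type 17 genes 0 passed in limma, against 1.48% of all tested genes, and 4 had an unadjusted p under 0.05, against 12.6%. Both counts are near the share over all genes, and the median difference was 0.19. The cytokine Il17a read 6.01, 5.66 and 4.33 in BALB/c and 5.54 and 4.93 in B6 (0.10 ± 0.43), and Il17f read 4.12, 5.0 and 4.42 in BALB/c and 5.15 and 4.62 in B6 (-0.37 ± 0.35). Il22 ranged more widely, with 8.98, 7.70 and 6.84 in BALB/c and 8.19 and 7.90 in B6 (-0.20 ± 0.97). The arrays of the strains overlap for all 3 cytokines. The chemokine receptor Ccr6 read 6.08, 6.41 and 7.08 in BALB/c and 7.32 and 6.71 in B6 (-0.49 ± 0.28). The interleukin 1 receptor Il1r1 was at 10.19, 9.99 and 10.20 in BALB/c and at 9.80 and 9.57 in B6 (0.44 ± 0.45, adjusted p = 0.763 in limma). Il23r differed by 0.37 ± 0.86. The errors of Il23r, Il1r1 and Il22 draw on BALB/c ROR- replicate 2, which read 7.0, 7.0 and 5.46 for these genes while replicates 1 and 3 read at most 3.37, 5.25 and 2.08. Without that array the errors were 0.24 for Il23r, 0.18 for Il1r1 and 0.57 for Il22, with adjusted p of 0.585, 0.334 and 0.933 in limma.

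Sdc1, the syndecan that marks iNKT17 cells, read 10.01, 8.73 and 9.81 in BALB/c and 8.91 and 8.86 in B6 (0.63 ± 0.51, adjusted p = 0.686 in limma), and it stood at -0.68 with the cell cycle level as a covariate (0.869). The low BALB/c value came from replicate 2, the array with the highest cell cycle level of its group. The Src-family kinase gene Blk read 10.09, 9.95 and 10.58 in BALB/c and 9.78 and 9.33 in B6 (0.65 ± 0.56). The transcription factor gene Maf hardly varied, at 11.24, 11.25 and 11.39 in BALB/c and 11.27 and 11.24 in B6.

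The lineage factor itself differed. Zbtb16, which encodes PLZF, read 8.89, 9.01 and 9.07 in BALB/c iNKT17 cells and 7.89 and 8.13 in B6 iNKT17 cells, so that the lowest BALB/c array lay above both B6 arrays. The rise was 0.98 ± 0.18 (1.97-fold, adjusted p = 0.019 in limma). It lost the call without B6 iNKT17 replicate 1 (0.87, adjusted p = 0.134), without B6 iNKT17 replicate 2 (1.10, 0.0966), without BALB/c iNKT17 replicate 1 (1.03, 0.052) and without BALB/c iNKT17 replicate 3 (0.94, 0.0848). Its size changed little across these fits. Ccr4, a chemokine receptor of skin homing and type 2 cells, read 7.23, 7.01 and 7.25 in BALB/c and 5.86 and 5.75 in B6 (1.36 ± 0.22). Its call was lost with the covariate, where it stood at 1.38 ± 0.3 (adjusted p = 0.0929 in limma). The call was also lost without B6 replicate 1 (0.0651), B6 replicate 2 (0.134) or BALB/c replicate 3 (0.0505) of the iNKT17 arrays. Zbtb16 and Ccr4 were the 2 calls among 21 tested genes of the type 2 and early iNKT list, whose median was 0.25. Of all tested genes 1.48% passed. The type 2 factor Gata3 stood at 8.53, 8.46 and 8.62 in BALB/c and 8.11 and 8.0 in B6 (0.48 ± 0.18, adjusted p = 0.26 in limma), with the same 0.48 from its other probe set. Il4 read 7.64, 7.69 and 7.39 in BALB/c and 7.71 and 7.40 in B6.

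Cd28, the main costimulatory receptor, read 8.22, 8.07 and 8.33 in BALB/c and 6.86 and 6.76 in B6, a rise of 1.40 ± 0.30. Its adjusted p of 0.0428 in limma was over the threshold in 9 of the fits with 1 array left out and reached 0.379 without B6 iNKT17 replicate 2, and it was 0.415 with the cell cycle level as a covariate. Itgb3, the beta 3 integrin, read 9.16, 9.39 and 9.31 in BALB/c and 8.38 and 8.46 in B6 (0.87 ± 0.15), and Tlr6, a Toll-like receptor for bacterial lipopeptides, read 7.27, 7.19 and 7.12 in BALB/c and 6.15 and 6.24 in B6 (0.99 ± 0.15). Both lost their call without either B6 iNKT17 array, with adjusted p in limma of 0.113 and 0.134 for Itgb3 and 0.0684 and 0.0648 for Tlr6 (without replicates 1 and 2), and Itgb3 also without BALB/c iNKT17 replicate 3 (0.07). With the covariate Itgb3 stood at 0.97 ± 0.21 (adjusted p = 0.0815 in limma) and Tlr6 at 0.91 ± 0.2 (0.104). Each was the single call of its list, among 19 costimulatory and inhibitory receptors, 17 integrins and 12 Toll-like receptor genes, beside 1.48% of all tested genes, and so small a count says nothing about the family.

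Ifngr1, the interferon gamma receptor chain, read 9.03, 9.34 and 9.38 in BALB/c and 10.27 and 10.01 in B6 (-0.89 ± 0.18, adjusted p = 0.036 in limma), the single call among 31 cytokine receptors. It was lost in 6 of the fits with 1 array left out, with an adjusted p of 0.147 to 0.18 without either B6 iNKT17 array, and with the covariate (0.436). The CD30 ligand Tnfsf8 read 4.67, 4.56 and 4.70 in BALB/c and 6.36 and 5.68 in B6 (-1.38 ± 0.21). It was the single call among 30 genes of the tumour necrosis factor superfamily, lost without B6 iNKT17 replicate 1 (adjusted p = 0.0702 in limma). These single calls stand beside 1.48% of all tested genes. In limma 7 of the 31 and 7 of the 30 had an unadjusted p under 0.05, against 12.6% of all tested genes. Il2rb, which carries interleukin 2 and 15 signals, read 7.81, 9.09 and 8.28 in BALB/c and 9.29 and 9.51 in B6 (-1.01 ± 0.30, adjusted p = 0.158 in limma), and without BALB/c iNKT17 replicate 2 it passed at -1.35 (adjusted p = 0.0124). Il2rb followed the cell cycle level and stood at -0.24 with it as a covariate (adjusted p = 0.993). Il7r, the interleukin 7 receptor, read 11.43, 10.63 and 11.19 in BALB/c and 10.72 and 9.91 in B6 (0.77 ± 0.31, adjusted p = 0.314), and it too followed that level, with a difference of 0.00 under the covariate.

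GIMAP genes, a chromosome 6 family of GTPases that support lymphocyte survival, had higher values in BALB/c in all 8 members, with a median of 0.79. Of the 8, 2 passed, against 1.48% of all tested genes. The other 6 had an unadjusted p under 0.05, which 12.6% of all tested genes had. Gimap4 read 10.03, 9.72 and 9.94 in BALB/c and 8.41 and 7.60 in B6 (1.89 ± 0.21, adjusted p = 5.72e-04 in limma). Gimap3 read 8.33, 8.28 and 8.50 in BALB/c and 7.69 and 6.60 in B6 (1.23 ± 0.27, adjusted p = 0.0458), a value that fell to 0.69 without B6 iNKT17 replicate 2 (adjusted p = 0.499). Gimap3 also lost its call without any 1 of the gamma-delta 17 or BALB/c ROR- arrays (adjusted p = 0.0598 to 0.0692) and without BALB/c iNKT17 replicate 1 (0.14) or 3 (0.172), and with the covariate (0.56). Gimap7 read 7.17, 5.46 and 6.35 in BALB/c and 5.16 and 4.46 in B6 (1.51 ± 0.43, adjusted p = 0.134). Within groups Gimap7 was lower where the cell cycle level was higher, and 4 of the 8 members are kept apart on that ground.

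Survival, signalling and energy genes can be set beside the 1.48% of all tested genes that passed. None of 15 pro-apoptotic and 13 anti-apoptotic genes passed in limma, with 2 and 1 at an unadjusted p under 0.05, and Bcl2 read 8.34, 9.46 and 8.53 in BALB/c and 9.05 and 9.16 in B6. Of 30 genes that respond to T cell receptor signals 0 passed and 2 had an unadjusted p under 0.05. Of 31 oxidative phosphorylation genes 0 passed and 2 had an unadjusted p under 0.05, with a median of -0.08. Among 16 mitochondrial redox enzymes 1 was higher and 1 lower. Nnt, the mitochondrial transhydrogenase, which carries a deletion in the J substrain of B6, read 6.39, 5.96 and 6.33 in BALB/c and 5.29 and 5.35 in B6 (0.91 ± 0.15, adjusted p = 0.00963 in limma), lost without B6 replicate 1 (0.0795), B6 replicate 2 (0.0935) or BALB/c replicate 3 (0.0505) of the iNKT17 arrays, and with the covariate (0.16). The substrain of the B6 mice is not in the labels. Satb1, a chromatin organiser of T cell development, read 8.72, 8.35 and 8.66 in BALB/c and 6.74 and 7.07 in B6 (1.67 ± 0.29, adjusted p = 0.0149), lost without B6 replicate 1 (0.118) or 2 (0.0928) or BALB/c replicate 1 (0.0622) or 3 (0.0655), and with the covariate (0.16). It was the only call among 8 tested markers of immature thymocytes, and the mean level of the 10 such markers on the array was 4.55 to 4.65 in BALB/c and 4.51 and 4.52 in B6.

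Proliferation separated the arrays in another way. The cell cycle level, the mean log2 value of 58 tested replication and mitosis genes, was 5.43, 7.60 and 5.97 on the BALB/c iNKT17 arrays and 7.74 and 8.55 on the B6 iNKT17 arrays. The groups did not overlap, but BALB/c replicate 2 stood within reach of B6 replicate 1. The means were 6.33 ± 1.13 in BALB/c (SD, n = 3) and 8.15 ± 0.57 in B6 (n = 2), a difference of -1.81 with a two-sided exact permutation p of 0.2, where 0.1 is the smallest that 10 splits allow. The ROR- cells of the same strains gave 6.94, 5.28 and 5.48 in BALB/c and 6.82 and 7.82 in B6, which overlap (exact permutation p = 0.3).

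**Figure D2:**
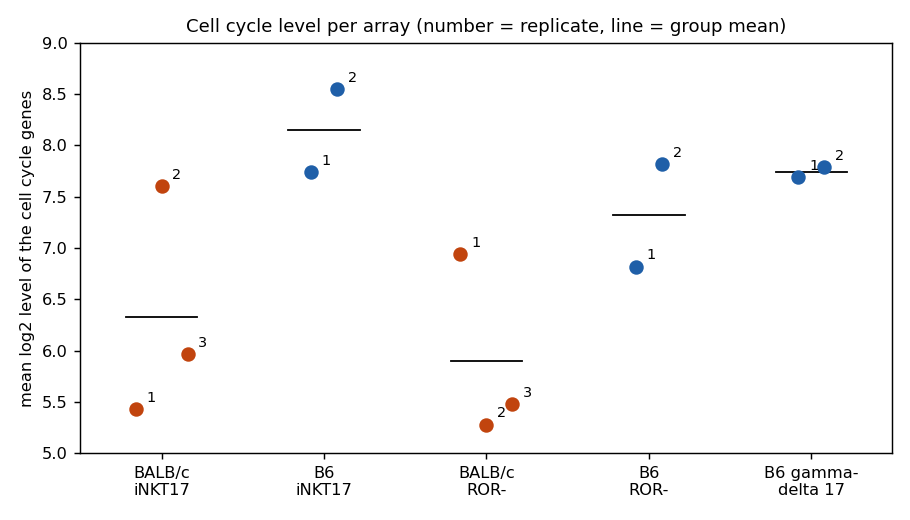
Mean log2 level of the 58 cell cycle genes on each of the 12 arrays (vertical axis) by group, with replicate numbers beside the points and the group mean as a line, BALB/c in red and B6 in blue. The BALB/c iNKT17 arrays span 5.43 to 7.60 and the B6 iNKT17 arrays 7.74 to 8.55.

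All 58 cell cycle genes had lower values in BALB/c iNKT17 cells, with a median of -1.84, yet 0 passed in limma. An unadjusted p under 0.05 was found for 56, against 12.6% of all tested genes, and 41 had no overlap between the strains, against 31.7%. The mitotic genes had a median of -2.20 and the replication genes -1.33. Top2a, the topoisomerase of chromosome separation, read 6.21, 9.21 and 7.33 in BALB/c and 9.53 and 10.10 in B6 (-2.23 ± 0.85, adjusted p = 0.282 in limma). Mki67, which coats mitotic chromosomes, read 7.14, 9.65 and 8.09 in BALB/c and 9.82 and 10.29 in B6 (-1.76 ± 0.73, adjusted p = 0.33). The kinase gene Cdk1 read 5.74, 8.45 and 6.44 in BALB/c and 8.77 and 9.55 in B6 (-2.28 ± 0.82, adjusted p = 0.248). In each of these genes BALB/c replicate 2 stood near B6 replicate 1. Between those 2 arrays the median difference over the 58 genes was -0.14.

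Mitotic genes often share the cell cycle homology region, searched as TTTGAA on both strands of the same 300-base windows, with overlap to other motifs allowed. It was in 17 of 25 promoters of the mitosis list, in 3 of 24 of the replication list and in 1938 of 12917 promoters of all tested genes (15%). The promoters of the 3 genes just described are given with the motif in capitals on either strand, 150 bases before the start along the gene, from RefSeq GRCm38.p6. Top2a lies at chr11:99024190-99024339, Cdk1 at chr10:69352913-69353062 and Mki67 at chr7:135716380-135716529, all on the minus strand.
Top2a: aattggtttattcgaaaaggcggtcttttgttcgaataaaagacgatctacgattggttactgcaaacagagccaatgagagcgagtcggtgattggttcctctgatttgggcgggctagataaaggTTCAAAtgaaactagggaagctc
Cdk1: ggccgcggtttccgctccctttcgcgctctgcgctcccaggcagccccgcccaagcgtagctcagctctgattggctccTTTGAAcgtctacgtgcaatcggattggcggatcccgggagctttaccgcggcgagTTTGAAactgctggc
Mki67: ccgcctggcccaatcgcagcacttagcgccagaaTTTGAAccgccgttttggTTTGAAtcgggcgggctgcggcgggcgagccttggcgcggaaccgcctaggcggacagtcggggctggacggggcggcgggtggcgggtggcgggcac
The Cdk1 and Mki67 windows hold the motif more than once and the Top2a window once, on the opposite strand.

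To keep such genes apart, each gene's slope on the cell cycle level was fitted within groups over the 12 arrays. The slope passed the threshold after adjustment for 430 genes (2.58%), of which 353 rose and 77 fell with the level, and it had an unadjusted p under 0.05 for 2440 (14.6%). A gene was kept apart when its slope had an unadjusted p under 0.05 or when it belongs to the cell cycle or histone lists, which held for 14.7% of all tested genes. Of the 247 called genes, 50 (20.2%) were kept apart, 24 higher and 26 lower in BALB/c. Among these, 24 were lower with a positive slope, 21 were higher with a negative slope and 5 ran the other way. The limit is permissive. With an adjusted slope p under 0.05 in place of the unadjusted one, 12 of the 247 were kept apart. The adjusted slope count over all tested genes was 182 without BALB/c iNKT17 replicate 2 and 217 on the 5 iNKT17 arrays alone.

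The largest of the falls kept apart were Cxcl3 and a histone gene. Cxcl3, a chemokine that attracts neutrophils, read 4.46, 5.95 and 4.82 in BALB/c iNKT17 cells and 9.14 and 9.35 in B6 iNKT17 cells. All BALB/c arrays were far below both B6 arrays, with BALB/c replicate 2 the highest of its group (-4.17 ± 0.34, adjusted p = 8.4e-05 in limma). With the cell cycle level as a covariate Cxcl3 stood at -3.27 (adjusted p = 6.62e-05). Without the covariate it was the only call among 30 cytokine and chemokine ligands, beside 1.48% of all tested genes. In limma 4 of the 30 had an unadjusted p under 0.05, against 12.6% of all tested genes. The keratin gene Krt24 read 3.42, 4.10 and 3.93 in BALB/c and 6.03 and 6.22 in B6, at -2.31 without and -1.90 with the covariate.

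The carboxypeptidase gene Cpe behaved otherwise. It read 5.81, 7.48 and 6.25 in BALB/c and 8.56 and 8.42 in B6, and its -1.97 ± 0.39 became -1.04 with the covariate (adjusted p = 0.352 in limma). The call was also lost without any 1 of B6 replicate 1 (0.14), B6 replicate 2 (0.236), BALB/c replicate 1 (0.097) or BALB/c replicate 3 (0.128) of the iNKT17 arrays. The tubulin gene Tubb2b was lower by -1.96, but its other probe set gave 0.46. Its neighbour Tubb2a on chromosome 13 was lower by -1.59 ± 0.27, and both lost their call with the covariate (adjusted p = 0.0815 for Tubb2b and 0.19 for Tubb2a) and without B6 iNKT17 replicate 2 (0.168 and 0.183). Tubb2b was also lost without BALB/c iNKT17 replicate 3 (0.05) and stood at -0.75 as the mean of its probe sets, and Tubb2a was lost without B6 iNKT17 replicate 1 (0.0583).

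Of 19 tested replication-dependent histone genes 3 were lower, against 0.81% of all tested genes, and 16 did not pass, with a median of -1.18. An unadjusted p under 0.05 was found for 14 of the 19, against 12.6% of all tested genes. H4c9 read 4.37, 4.67 and 3.68 in BALB/c and 8.20 and 8.76 in B6 (-4.24 ± 0.50, adjusted p = 0.00117 in limma), and it kept its call with the covariate at -3.57 (0.0213). H2bc9 (-2.50) and H1f1 (-2.29) lost theirs with the covariate (adjusted p = 0.527 and 0.0815, limma) and without B6 iNKT17 replicate 2 (0.419 and 0.179). H1f1 was lost without BALB/c iNKT17 replicate 3 too (0.0505), and H2bc9 without B6 iNKT17 replicate 1 (0.115), BALB/c iNKT17 replicate 1 or 3 (0.161 for both) and BALB/c ROR- replicate 1 (0.0514) or 2 (0.0582).

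The rises kept apart were led by Gm15987, given above with its neighbours, and by Pla2g7. Pla2g7, the platelet-activating factor acetylhydrolase, read 6.62, 5.33 and 5.90 in BALB/c and 3.37 and 3.52 in B6, with a rise of 2.50 that was 1.96 with the covariate. Aif1, an actin-binding gene known from macrophages, read 7.36, 6.42 and 7.54 in BALB/c and 5.42 and 5.06 in B6, and its 1.87 became 0.97 with the covariate (adjusted p = 0.0598 in limma). Scg5, the chaperone of a prohormone convertase, read 6.28, 5.0 and 6.09 in BALB/c and 4.08 and 3.41 in B6, at 2.04 without and 1.04 with the covariate (0.0634). In all 3 genes BALB/c replicate 2, with its higher cell cycle level, was the lowest of its group. Aif1 and Scg5 also lost their call without any 1 of 4 iNKT17 arrays, with adjusted p up to 0.235 for Aif1 and 0.281 for Scg5, both without B6 replicate 2. The rise of Ifi204 was 2.11, with a B6 mean of 1.87 under the dim level, and 1.14 with the covariate (0.118), and its call was lost without B6 replicate 1 (0.0842) or 2 (0.2) or BALB/c replicate 1 (0.0573) or 3 (0.0613) of the iNKT17 arrays. Stc2, a secreted glycoprotein gene, ran the other way, at 1.48 without and 2.03 with the covariate, and its call without the covariate was lost in 9 of the fits with 1 array left out, up to an adjusted p of 0.301 without B6 iNKT17 replicate 2.

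With the cell cycle level as a covariate 86 genes differed between the strains in iNKT17 cells (0.516%), 36 higher and 50 lower. Of these, 71 were among the 247, made up of 59 of the 197 not kept apart and 12 of the 50 kept apart. All 247 called genes kept their sign. Some calls were lost without a smaller difference, as for Rpph1, Ccr4, Itgb3 and Serpinb6b, whose errors were larger in that fit. The cell cycle genes make up the covariate, so their median of -0.01 in that fit follows from its construction. Klrb1b stood there at -4.34, Gbp2b at 4.43 and Ctse at 3.86, while Zbtb16 stood at 1.11 with an adjusted p of 0.0847 in limma. On the pair of arrays with near-equal cell cycle level, BALB/c replicate 2 and B6 replicate 1, 112 of the 144 genes of at least 2-fold were again at least 2-fold. All 144 had the same sign, which was fixed in advance, since no called gene overlaps between the strains. Zbtb16 differed by 1.12 on that pair, Klrb1b by -4.18 and Top2a by -0.32. These are the same arrays that entered the main result.

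**Figure D3:**
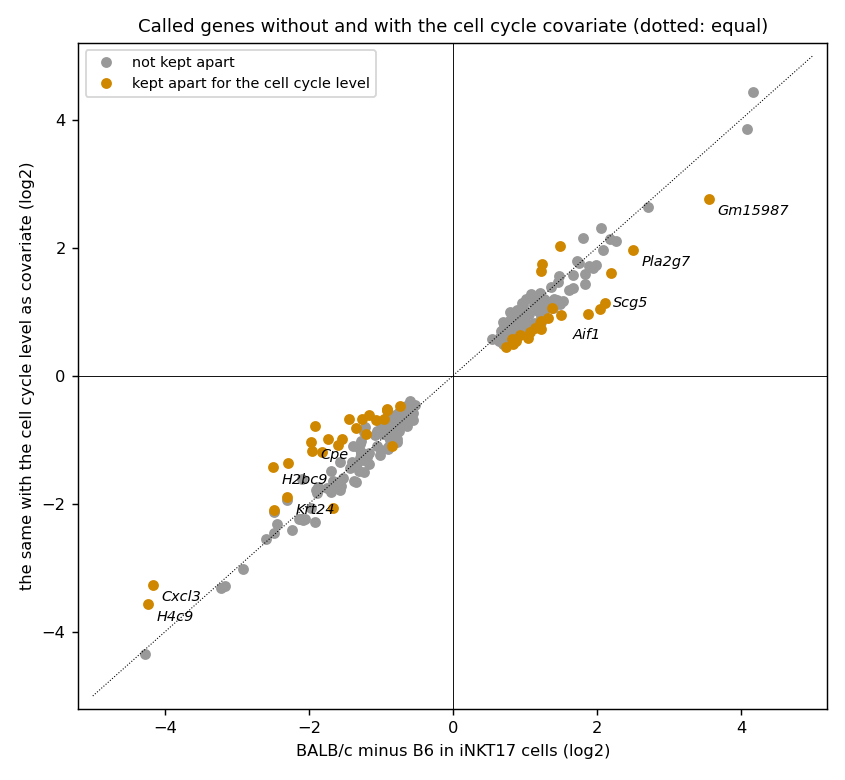
BALB/c minus B6 difference (log2) of the 247 called genes in iNKT17 cells without (horizontal) and with (vertical) the cell cycle level as a covariate, with the 50 genes kept apart in orange and the other 197 in grey. Cpe, Aif1 and Scg5 lie nearer to 0 with the covariate, Cxcl3 and H4c9 stay among the largest differences, and no gene changes side.

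Strain differences in ROR- cells set these results in context. They share no arrays with the iNKT17 comparison, though they share its estimate of the spread. In ROR- cells 203 genes differed (1.22%), 63 higher in BALB/c (0.378%) and 140 lower (0.84%). Called in both cell types were 89 genes, 35 higher and 54 lower, all with the same sign, which is 36% of the iNKT17 calls and 43.8% of the ROR- calls. Of the 247 iNKT17 calls 92.7% had the same sign in ROR- cells, against 65.9% of all tested genes. The differences in ROR- cells were 4.66 for Gbp2b, 3.10 for Ctse and -3.17 for Klrb1b. Trim34a and Trim12a were at -3.78 and -4.26 there, H2-T10 at -2.27, Hspe1 at -2.16 and Apobec3 at -1.77. Zbtb16 differed by 0.46 in ROR- cells and did not pass (adjusted p = 0.325 in limma). It read 9.27, 9.14 and 8.89 in BALB/c ROR- cells and 8.66 and 8.61 in B6 ROR- cells. The test of the difference between the cell types gave 0.52 ± 0.25 for Zbtb16 (adjusted p = 0.999 in limma), so its rise was not shown to be particular to iNKT17 cells. Without B6 ROR- replicate 2 the ROR- count was 62.

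**Figure D4:**
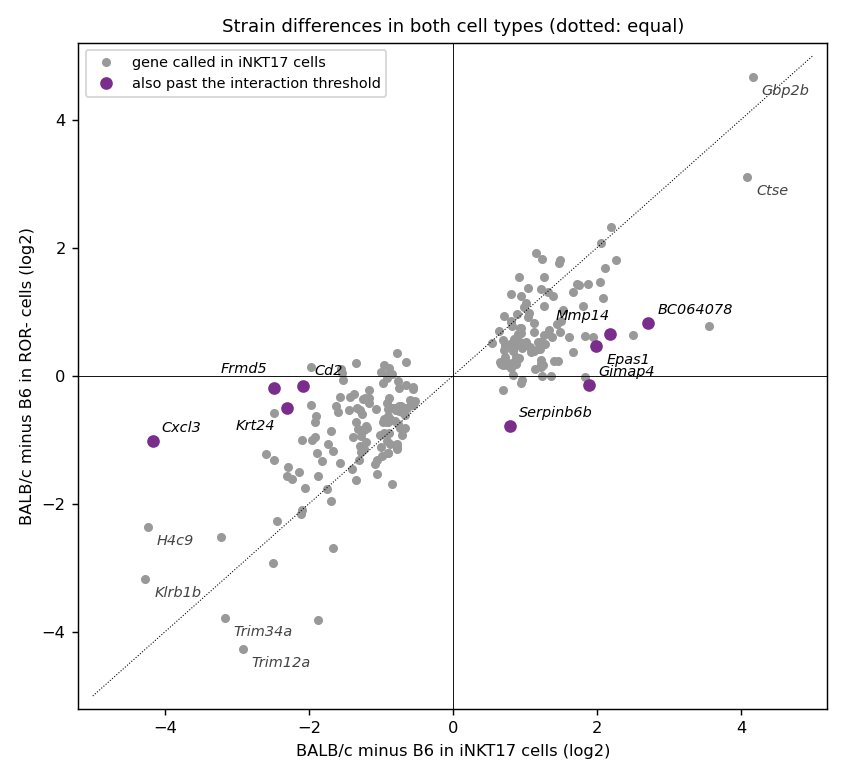
BALB/c minus B6 difference (log2) of the 247 genes called in iNKT17 cells (horizontal) against the same difference in ROR- cells (vertical), with the 9 that also pass the test of the difference between cell types in purple. Gbp2b, Ctse, Klrb1b, Trim34a and Trim12a are large in both, while Cxcl3, Cd2, Frmd5 and Gimap4 lie far from the dotted line of equality.

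The strain difference itself differed between iNKT17 and ROR- cells for 14 genes (0.084%; interaction test in limma), and 669 genes had an unadjusted p under 0.05 (4.01%). Of the 14, 9 were called in iNKT17 cells. Cxcl3 in ROR- cells read 3.45, 3.16 and 3.01 in BALB/c and 3.96 and 4.5 in B6, so the high level of B6 iNKT17 cells had no counterpart there (interaction -3.15 ± 0.48, adjusted p = 0.0458 in limma). Cd2 in ROR- cells read 9.49, 9.49 and 9.39 in BALB/c and 9.66 and 9.59 in B6. It was thus high and nearly equal in ROR- cells of both strains. In iNKT17 cells it was lower in both strains, at 7.54 and 7.49 in B6 and lowest in BALB/c at 5.79, 5.27 and 5.25 (interaction -1.91 ± 0.29, adjusted p = 0.0447).

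Gimap4 in ROR- cells read 10.70, 10.67 and 10.36 in BALB/c and 10.69 and 10.77 in B6, above the B6 iNKT17 arrays (interaction 2.05 ± 0.29, adjusted p = 0.0417 in limma). Mmp14 read 4.35, 4.59 and 4.59 in BALB/c ROR- cells and 3.78 and 3.94 in B6 ROR- cells, and its interaction was 1.53 ± 0.17 (adjusted p = 0.0111). BC064078 had an interaction of 1.88, Epas1 of 1.52, Frmd5 of -2.29, Krt24 of -1.79 and Serpinb6b, a serine protease inhibitor gene, of 1.57. Serpinb6b was higher by 0.79 ± 0.17 in BALB/c iNKT17 cells and stood at -0.78 in ROR- cells (adjusted p = 0.0524 in limma). Its call in iNKT17 cells was lost in 10 of the fits with 1 array left out, up to an adjusted p of 0.242 without B6 iNKT17 replicate 2. It was also lost with the cell cycle covariate, at 0.87 ± 0.23 (0.191). These interaction calls are fragile. Without B6 ROR- replicate 2 limma made 0 calls (673 at an unadjusted p under 0.05), it made 1 without B6 ROR- replicate 1 or B6 iNKT17 replicate 2, 2 without B6 iNKT17 replicate 1, 4 without BALB/c iNKT17 replicate 1 or 3 or BALB/c ROR- replicate 1 or 3, and 6 without BALB/c ROR- replicate 2. Of the 9 genes Mmp14 kept its call in 8 of the 12 fits with 1 array left out while the other 8 genes kept it in 1 to 4.

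**Figure D5:**
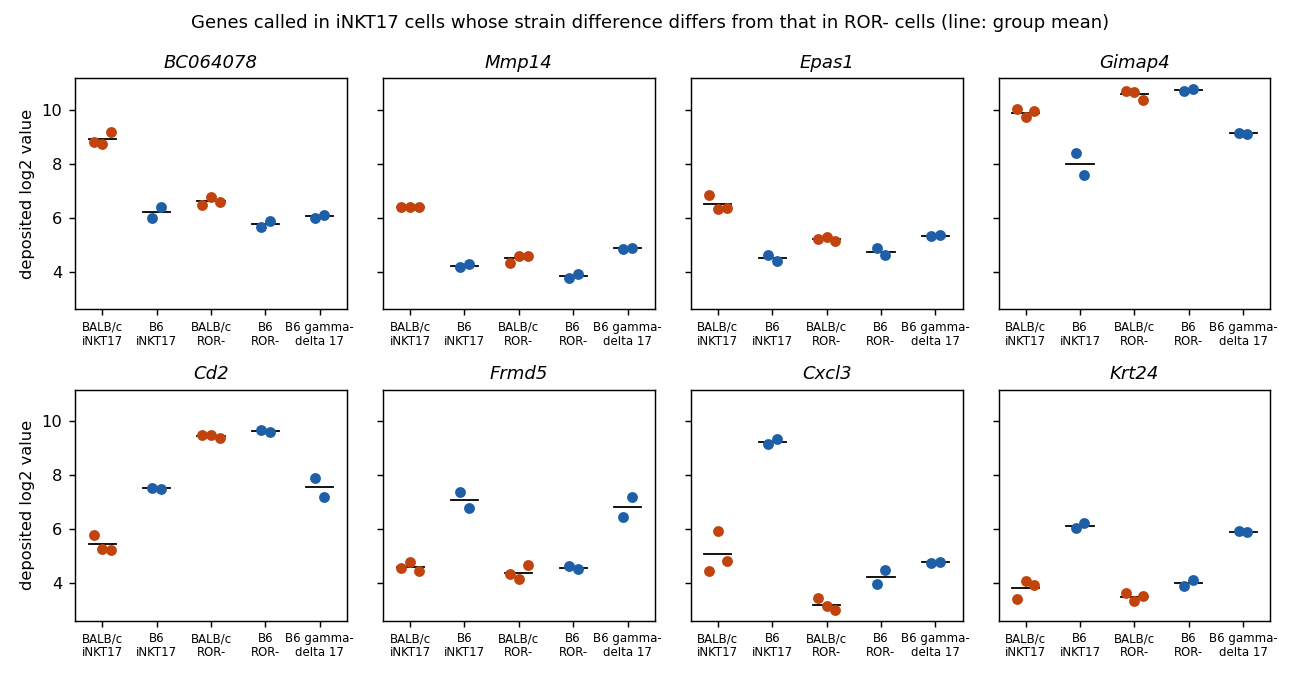
Deposited log2 values on every array (points; red BALB/c, blue B6; line, group mean) of 8 genes called in iNKT17 cells whose strain difference also differed from that in ROR- cells. BC064078, Mmp14 and Epas1 are highest in BALB/c iNKT17 cells, Cxcl3 is highest in B6 iNKT17 cells, and Cd2 is high in both ROR- groups.

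The B6 gamma-delta 17 arrays give a further reading of the same genes in type 17 cells of another lineage. Replicate 1 read higher than replicate 2 for neutrophil, immature thymocyte and natural killer and CD8 markers. For 125 of the 144 genes of at least 2-fold (86.8%) the mean of both gamma-delta 17 arrays was nearer to B6 iNKT17 than to BALB/c iNKT17 cells. Of all tested genes 51.2% had that property. Klrb1b read 6.67 and 6.72 there, Trim34a 7.24 and 8.07, Frmd5 6.44 and 7.20 and Krt24 5.94 and 5.88, all on the B6 side. Ctse read 6.44 and 6.48 in gamma-delta 17 cells, also nearer to B6. Cxcl3 was an exception. It read 4.76 and 4.79 in gamma-delta 17 cells, beside 4.46 to 5.95 in BALB/c iNKT17 cells and 9.14 and 9.35 in B6 iNKT17 cells.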

How the data were processed

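Total RNA was labelled as biotinylated cRNA and hybridised to Affymetrix whole-transcript arrays, 1 per sample, per the labels' protocols. The authors deposited a table of 41345 probe sets on a log2 scale. It was made with the R package oligo, per the submitters' processing notes, and neither its version nor the background correction and normalization is given in the sources here. The log2 base was taken from the range of the values. Depth has no meaning for arrays, and the number of arrays limits the precision.

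Of the probe sets 23521 had 1 gene symbol in the platform annotation, and the brightest by 12-array mean was kept for each of 22180 genes. Genes entered the test with 2 or more arrays above the 30th percentile of the named values (3.45), which left 16667. Probe sequences were not checked against BALB/c variants. limma 3.58.1 in R 4.3.3 fitted group means to the 12 arrays (7 residual and 4.50 prior degrees of freedom), with Benjamini-Hochberg adjustment over all tested genes and a threshold of 0.05. Differences are BALB/c minus B6 with standard errors (SE). The script was tested on simulated data. The named genes are the 15 largest changes each way of at least 2-fold without overlap, not kept apart for the cell cycle level and not clone-named, the 8 largest each way kept apart, up to 6 interaction genes each way, up to 4 called members per list and fixed anchor genes. Members and lists were chosen with earlier results of these data known. Alternatives changed scaling, filter, probe-set rule, arrays, weights, replicate block and covariate.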

Additional observations from a re-analysis of the deposited data

Results flagged for a closer look

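For 14 genes the strain difference in iNKT17 cells differed from that in ROR- cells by an interaction test (limma, adjusted p under 0.05 over 16667 genes, 0.084% of them). The values here are the BALB/c minus B6 difference in iNKT17 cells minus that in ROR- cells, in log2 units. Among genes called in iNKT17 cells these were 1.88 for BC064078, 1.53 for Mmp14, 1.52 for Epas1, 2.05 for Gimap4, 1.57 for Serpinb6b, -2.29 for Frmd5, -1.91 for Cd2, -3.15 for Cxcl3 and -1.79 for Krt24.

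The other 5 were not called in iNKT17 cells, and their strain difference lay in ROR- cells. Klra9, an inhibitory receptor of the Ly49 family, read 2.90, 2.30 and 3.62 in BALB/c ROR- cells and 6.87 and 6.95 in B6 ROR- cells, an interaction of 3.56 ± 0.41. Gpnmb, a transmembrane glycoprotein gene, read 3.99, 3.71 and 3.44 in BALB/c ROR- cells and 7.20 and 7.39 in B6 ROR- cells, an interaction of 2.86 ± 0.26 (adjusted p = 0.00334 in limma). It kept its call in 11 of 12 fits with 1 array left out, and the exception gave an adjusted p of 0.0508. Klri2 (1.67), Ifit1bl1 (1.62) and Fcrl1 (1.41) were likewise highest in B6 ROR- cells. The iNKT17 means of Klra9, Klri2 and Ifit1bl1 were under the dim level in both strains, which leaves the size of these interactions uncertain.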

How the results depend on the processing

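Setting aside the fits with 1 array left out, the 247 iNKT17 calls stayed within 1.5 times under 8 of the planned settings. These gave 178 to 251, the lowest with the replicate block. The count was 159 on the 5 iNKT17 arrays alone, 549 with array weights and 86 with the cell cycle covariate, and it ranged from 77 to 531 when 1 array was left out. An added setting, chosen after seeing the data, kept 1 array per iNKT17 group at near-equal cell cycle level and gave 30, with a lone array assumed to vary like the other groups. The ROR- count of 203 was 117 with the covariate and 111 in the added setting, and 62 to 259 with 1 array left out. The 14 interaction calls were 9 with quantile normalization, 6 with the replicate block, 0 in the added setting (430 at an unadjusted p under 0.05, limma) and 0 to 15 with 1 array left out. The 430 slopes were 217 on the 5 iNKT17 arrays, 97 in the added setting and 182 to 504 with 1 array left out. None of the 70 named calls in iNKT17 cells changed sign, which leaving out arrays alone could not bring about. Of 32 named genes that were not called, 16 changed sign under some planned setting, 11 of them with the covariate (Sdc1 to -0.68, Il23r to -0.65, Il1r1 to -0.13, Bcl2 to 0.48, Top2a to 0.23 and Mki67 to 0.34, among others). Of the 70 calls 37 were kept under all planned settings, 38 with any 1 array left out and 42 with the covariate. The cause of these changes was not tested, beyond that fits without an array hold fewer samples.

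Replicate numbers were not shown to pair the arrays. Same-numbered BALB/c and B6 iNKT17 arrays deviated together at 0.24 (number 1) and 0.46 (number 2), B6 iNKT17 and B6 ROR- arrays at 0.47 for both numbers and BALB/c iNKT17 and B6 ROR- arrays at 0.19 and 0.38, while BALB/c iNKT17 and BALB/c ROR- arrays gave -0.46, -0.34 and 0.14, and B6 iNKT17 and BALB/c ROR- arrays -0.35 and -0.10. With the replicate block the iNKT17 count was 178, the ROR- count 139, the interaction count 6 and the slope count 313.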
